A study of Arabidopsis thaliana with 3 samples.

Results

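The expansins of the inflorescence stem base were examined in Arabidopsis thaliana plants that carry T-DNA insertions in NST1 and in NST3, a pair of genes for NAC transcription factors that switch on secondary wall formation, and set against wild type. Members were all spots of the array with 1 listed gene whose symbol is EXPA or EXPB followed by a number. This gave 12 genes, each with 1 spot, out of 9253 genes measured: 9 alpha-expansins (EXPA4, EXPA7, EXPA8, EXPA9, EXPA15, EXPA16, EXPA18, EXPA20 and EXPA21) and 3 beta-expansins (EXPB1, EXPB3 and EXPB4). The gene table of assembly TAIR10.1 names 30 such genes, 24 EXPA and 6 EXPB, and the others were not analysed here.

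RNA came from the lowest 4 cm of stems that were 12 to 17 cm tall, from plants without treatment grown in short days (8 h light, 16 h dark). Each of 3 two-colour arrays set 1 sample of the genotype nst1-1 nst3-1 (#1, #2 and #3, called lines 1, 2 and 3) against wild type. The series calls the lines independent, yet all carry the same allele names. The labels give no plant age or ecotype, and do not say how many plants or wild-type extracts were used, so the spread between lines may be partly technical. They state that the mutant makes no secondary xylem in its inflorescence stem or hypocotyl.

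Expansins are small secreted proteins that loosen the walls of growing plant cells at acid pH. They do so without cutting the polymers, by weakening contacts between cellulose and the matrix polysaccharides around it. Alpha-expansins (EXPA) act in acid growth, and beta-expansins (EXPB) form the sister family, which in grasses includes the pollen allergens of group 1. The expansin-like families EXLA and EXLB share the fold, but no loosening activity is established for them.

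Values are log2 ratios of mutant over wild type, so 0 means equal signal and 1 means 2-fold more in the mutant. They compare genotypes within a gene and give no level of one gene against another. Their direction was set from the labelled dyes with the deposited values taken as Cy5 over Cy3, and their size by taking those values as log10. Neither was stated with the data. If the ratios were Cy3 over Cy5, every direction would turn. In a whole stem base, a change in the number of cells that express a gene cannot be told apart from a change of its RNA per cell. NST1 and NST3 had no listed spot, so the labels were not checked through the targeted transcripts. The wild type's own spread is not estimated separately, because wild-type RNA was on every array.

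None of the 12 expansins passed the test. With limma and Benjamini-Hochberg adjustment over all 9253 genes, 0 were higher and 0 lower at an adjusted p under 0.05, against a background of 3.39% of genes called (0.789% higher and 2.6% lower). At an unadjusted p under 0.05 there was 1 member, EXPA9, against 25.8% of all genes. The median of the members' mean log2 ratios was -0.03, and that of all genes 0.01. For 7 of the 12 members the mean lay within 0.25 of 0. The members ran from -0.43 for EXPA9 to 1.09 for EXPB3, and their limma adjusted p-values from 0.126 to 0.949.

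**Figure D1:**
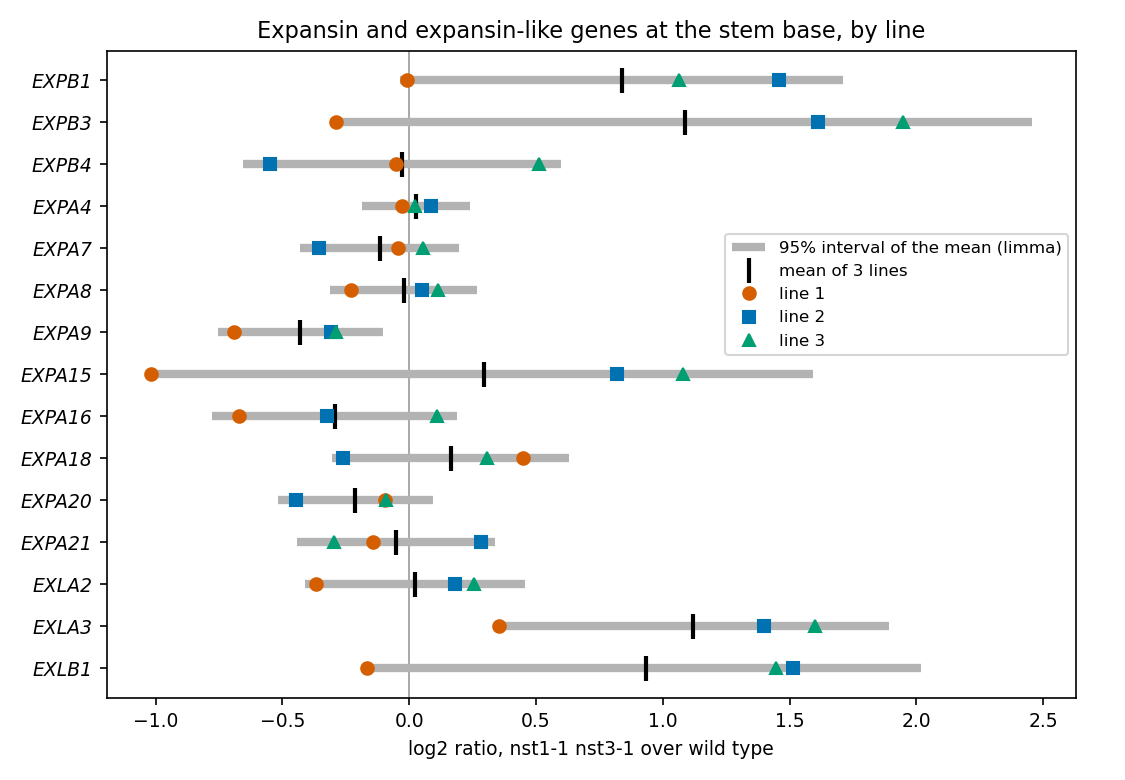
Log2 ratio of mutant over wild type (horizontal axis) for each EXPB, EXPA and expansin-like gene (rows), with 1 symbol per line, a black tick for the mean of the 3 lines and a grey bar for limma's 95% interval of that mean. EXPB1, EXPB3, EXPA15 and EXLB1 have line 1 at or below 0 and lines 2 and 3 well above it, while EXPA4 stays within 0.09 of 0 in every line.

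Among the beta-expansins, EXPB3 (AT4G28250) had the highest mean ratio of the family. It measured -0.29 in line 1, 1.61 in line 2 and 1.95 in line 3. Lines 2 and 3 were both more than 2-fold above wild type and line 1 was slightly below it. The mean was 1.09 ± 1.21 (SD, n = 3 lines), or 2.13-fold, and the limma adjusted p was 0.264. Limma's 95% interval ran from -0.28 to 2.45, so neither no change nor a 2-fold change lies outside it. The spread over lines was wider than that of 99.1% of all genes, and the mean ranked at the 99.1 percentile. With a standard error this wide, a mean of 3.66 would have been needed to reach the largest p that was called.

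EXPB1 (AT2G20750) measured -0.0082 in line 1, 1.46 in line 2 and 1.06 in line 3. As for EXPB3, lines 2 and 3 were more than 2-fold above wild type, and line 1 was level with it. The mean was 0.84 ± 0.76 (SD, n = 3 lines), with a 95% interval from -0.04 to 1.71 and a limma adjusted p of 0.206. EXPB4 (AT2G45110), the third beta-expansin, measured -0.05, -0.55 and 0.51 in lines 1, 2 and 3. Here lines 2 and 3 lay on opposite sides of wild type, and the mean was -0.03 ± 0.53 with a limma adjusted p of 0.949.

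Among the alpha-expansins, EXPA15 (AT2G03090) differed most between lines. It measured -1.02 in line 1, 0.82 in line 2 and 1.08 in line 3. Line 1 was thus about as far below wild type as the other lines were above it. The mean of 0.29 ± 1.14 (SD, n = 3 lines; limma adjusted p = 0.738) describes none of the lines, and its 95% interval from -1.004 to 1.59 allows a 2-fold change in either direction. Its SD was above that of 98.9% of all genes.

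EXPA9 (AT5G02260) was lower in every line, with values of -0.69, -0.31 and -0.29 in lines 1, 2 and 3. Its mean was -0.43 ± 0.23 (SD, n = 3 lines), or 1.35-fold lower, with a 95% interval from -0.76 to -0.11. It had an unadjusted limma p of 0.0211 and an adjusted p of 0.126, so it was not called. EXPA20 (AT4G38210) was the other member below 0 in all lines, at -0.10, -0.45 and -0.09, with a mean of -0.21 ± 0.20 and a limma adjusted p of 0.318. No member was above 0 in all 3 lines. Over all genes, 23.9% were below 0 in every line and 26.2% above.

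EXPA16 (AT3G55500) measured -0.67 in line 1, -0.32 in line 2 and 0.11 in line 3. Its mean was -0.29 ± 0.39 (SD, n = 3 lines; limma adjusted p = 0.37), with the lines on both sides of wild type.

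EXPA4 (AT2G39700) and EXPA8 (AT2G40610) had the means closest to 0 among the members, with the lowest SDs. EXPA4 measured -0.03, 0.09 and 0.02, and its SD of 0.06 was below that of most genes, at the 8.59 percentile. Its 95% interval, from -0.19 to 0.24, left out a 2-fold change in either direction. EXPA8 measured -0.23, 0.05 and 0.11, with an interval from -0.31 to 0.27 that also left out 2-fold changes. Their limma adjusted p-values were 0.861 and 0.917. Spot intensities were not used here, so these small ratios were not set against signal over background.

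EXPA7 (AT1G12560) and EXPA18 (AT1G62980) are known as root hair expansins, and both had spots on this stem array. EXPA7 measured -0.05, -0.36 and 0.05 in lines 1, 2 and 3, with a mean of -0.12 ± 0.21. EXPA18 measured 0.45, -0.26 and 0.31, with a mean of 0.16 ± 0.38. Neither gene kept 1 direction over the lines, and the limma adjusted p-values were 0.579 and 0.601. Whether either transcript was above background in the stem was not analysed here.

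EXPA21 (AT5G39260) measured -0.14, 0.28 and -0.30 in lines 1, 2 and 3, with a mean of -0.05 ± 0.30 and a limma adjusted p of 0.85. In the gene table it lies directly beside EXPA22, an expansin of the same family with no listed spot. How far the EXPA21 spot also binds transcripts of similar expansins was not tested.

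Of the 12 expansins 2 had 1 sign on all 3 deposited arrays, against a background of 14% of all genes, so a share near that of all genes. The deposited log10 ratios of EXPA18, before the array of line 2 was turned, were 0.135, 0.0791 and 0.0919, all positive. Those of EXPA21 were -0.0432, -0.0849 and -0.0889, all negative. Mutant RNA was labelled with Cy5 for lines 1 and 3 but with Cy3 for line 2, so a genotype effect would change sign on the latter. With a dye term in the fit, which leaves 1 residual degree of freedom, the dye effect was 0.32 on the log2 scale for EXPA18 and -0.25 for EXPA21, with unadjusted limma p-values of 0.0544 and 0.0958. It was larger in size for EXPB1 (-0.47), EXPA15 (-0.40), EXPB3 (-0.39) and EXPB4 (0.39), and the adjusted limma p of the dye effect was 1 for every member. The genotype ratio of EXPA18 was then 0.06 and that of EXPA21 0.03, against 0.16 and -0.05 without the term. EXPB4 had deposited log10 ratios of -0.0157, 0.165 and 0.154, alike on the arrays of lines 2 and 3, whose dyes are opposite.

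**Figure D2:**
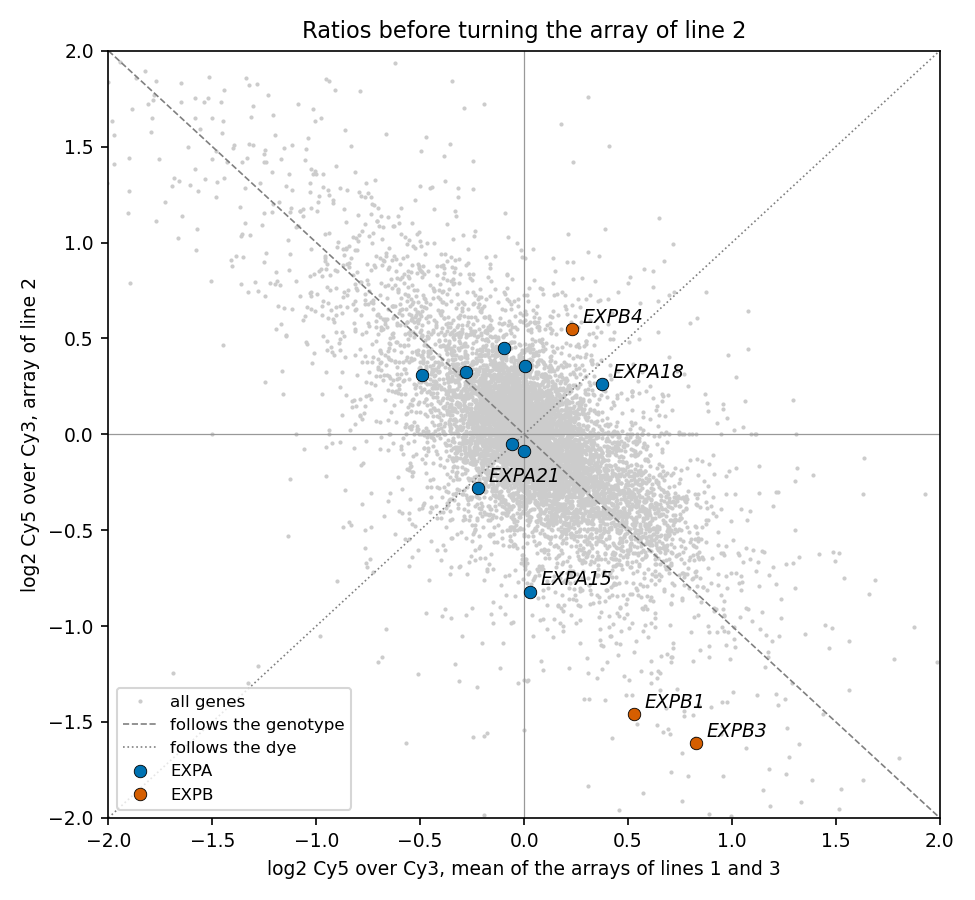
Log2 Cy5 over Cy3 before turning, on the array of line 2 (vertical axis) against the mean of the arrays of lines 1 and 3 (horizontal axis), with grey points for all genes and coloured points for EXPA and EXPB. Axes end at 2 in either direction, which leaves 84 genes outside. EXPB1 and EXPB3 lie at the lower right, where the sign follows the genotype, below the falling dashed line of equal size. EXPA18 and EXPA21 lie near the rising dotted line of a ratio that follows the dye.

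The array of line 1 stood apart from the others for several expansins, and also over all genes. Its log2 ratios had Pearson correlations of 0.488 with line 2 and 0.477 with line 3, against 0.784 between lines 2 and 3. Its spread over all genes was the widest, with a median absolute deviation of 0.36 against 0.32 in line 2 and 0.28 in line 3. In line 1, 11 of the 12 members were below 0, against 48.1% of all genes. In line 2 it was 6 of 12 against 47.3%, and in line 3 it was 3 of 12 against 47.6%. The count for line 1 includes values close to 0, such as -0.0082 for EXPB1 and -0.03 for EXPA4. The members' median was -0.12 in line 1, -0.11 in line 2 and 0.11 in line 3. The mean of lines 2 and 3 was more than 1 log2 unit above line 1 for 3 members, EXPB3 (2.07), EXPA15 (1.97) and EXPB1 (1.27), against 3.34% of all genes. No member had a difference of that size in the other direction, against 2.82% of all genes. EXPB3 and EXPB1 were at or below 0 in line 1 and more than 2-fold up in both other lines. EXPB1 met this narrowly, at -0.0082 in line 1 and 1.06 in line 3. Of all genes 0.335% had this pattern, but it describes the members' own values, so the share is no test of them. With 1 array of line 1 this difference between lines has no replicate and was not tested. The array of line 1 has the dye orientation of that of line 3.

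**Figure D3:**
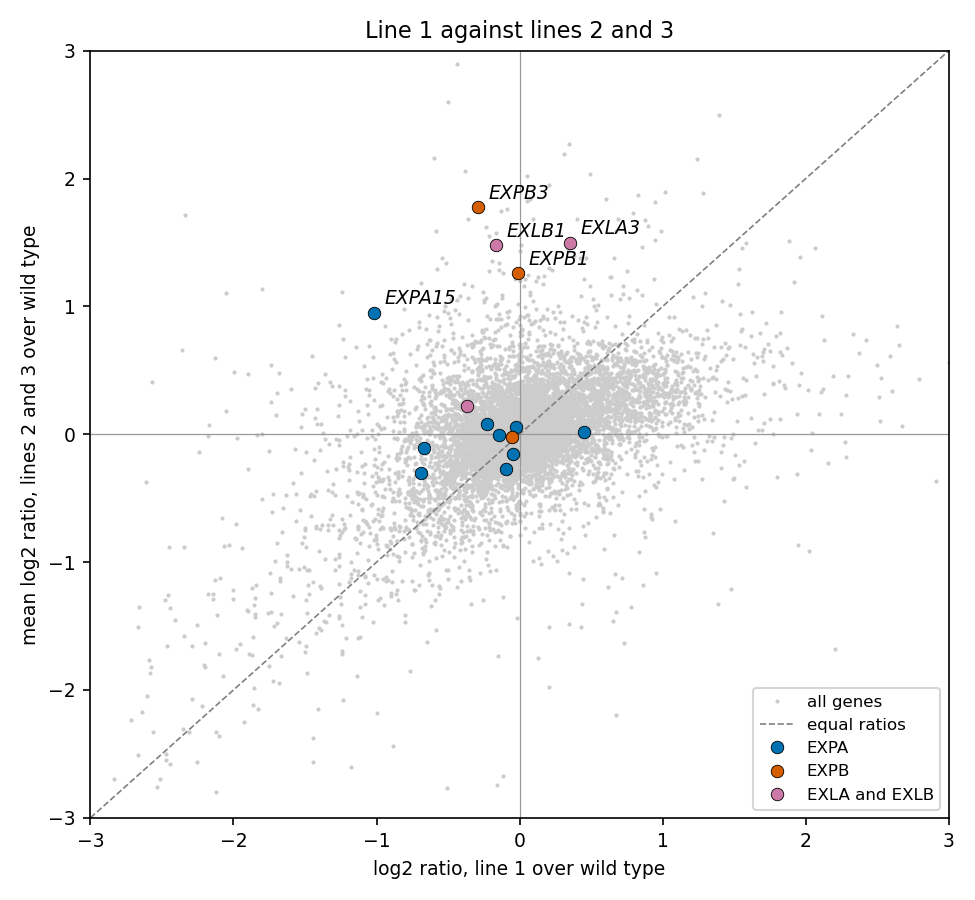
Mean log2 ratio of lines 2 and 3 (vertical axis) against the log2 ratio of line 1 (horizontal axis), mutant over wild type, with grey points for all genes, coloured points for the expansin families and a dashed line for equal ratios. Axes end at 3 in either direction, which leaves 33 genes outside. EXPB3, EXPB1, EXPA15, EXLA3 and EXLB1 lie well above the dashed line, and the other members lie in the main cloud of genes.

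The calls turned on that array. Without line 1, limma called 3 members higher: EXPB3 at 1.78 (adjusted p = 0.0223), EXPB1 at 1.26 (adjusted p = 0.0322) and EXPA15 at 0.95 (adjusted p = 0.0336). The background there was 6.2% of genes higher and 6.3% lower. Without line 2, EXPB3 was at 0.83, EXPB1 at 0.53 and EXPA15 at 0.03. Without line 3 they were at 0.66, 0.73 and -0.10. No expansin, and no other gene, was called in either of these fits. The fit without line 1 keeps the arrays most alike over all genes, and each of the fits rests on 2 arrays.

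Of the 3 measured expansin-like genes none was called, and in lines 2 and 3 the values of EXLA3 and EXLB1 were far above those of EXLA2. EXLA3 (AT3G45960) measured 0.36, 1.399 and 1.60 in lines 1, 2 and 3, with a mean of 1.12 ± 0.67 (SD, n = 3 lines; limma adjusted p = 0.11). It was above 0 in every line, and its 95% interval ran from 0.34 to 1.89. EXLB1 (AT4G17030) measured -0.17, 1.51 and 1.45, with a mean of 0.93 ± 0.95 and a limma adjusted p of 0.239. EXLA2 (AT4G38400) measured -0.37, 0.18 and 0.26, with a mean of 0.02 ± 0.34. Its line 1 was below wild type and lines 2 and 3 above it, as for EXLB1, but by far less in lines 2 and 3.

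EXLA3 and EXLB1 shared the line pattern of EXPB1 and EXPB3, in that lines 2 and 3 were both more than 2-fold up and line 1 was lower. Without line 1 limma called both of them, EXLA3 at 1.4998 (adjusted p = 0.0206) and EXLB1 at 1.48 (adjusted p = 0.0186). That fit called 6.2% of all genes higher. Over expansins and expansin-like genes together, 4 of 15 were more than 2-fold up in both lines 2 and 3 and 0 were more than 2-fold down. The background was 1.03% and 2.14% of all genes, and these shares are likewise a description only. In the gene table EXLA3 lies directly beside EXLA1, which had no listed spot, and binding of EXLA1 transcripts to the EXLA3 spot was not tested.

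Measured genes next to EXPB3 and EXPB1 on the chromosome were near or below wild type in every line. Beside EXPB3, AT4G28240 measured 0.04, 0.0031 and -0.05 in lines 1, 2 and 3, and AT4G28260 measured -0.53, -0.53 and -0.47 (limma adjusted p = 0.053). Beside EXPB1, AT2G20740 had a mean of -0.02 and AT2G20760 one of -0.12. None of these neighbours was above 0.12 in any line. The measured neighbour of EXPA15, AT2G03110, was higher in all lines at 0.78, 0.84 and 0.64 and was called (mean 0.75 ± 0.10, limma adjusted p = 0.0419), without the drop in line 1 seen for EXPA15.

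Genes with the most similar line pattern were sought among the 1298 genes that have a symbol other than the locus code, by the Euclidean distance over the 3 log2 ratios. Closest to EXPB3 were UGT72E2, a glucosyltransferase gene of monolignols, at a distance of 0.33, CHIL, a chalcone isomerase-like gene, at 0.39, and SGP2 at 0.412. UGT72E2 measured -0.13, 1.78 and 1.71. Closest to EXPB1 were the asparaginase gene ASPGB1 (0.32), the histone H2B gene HTB2 (0.381) and VPS2.2 (0.383), a gene of membrane sorting. Closest to EXPA15 were the beta-glucosidase gene BGLU15 (0.332), the peptide gene RALFL34 (0.374) and TBL28 (0.419). RALFL34 measured -1.05, 0.50 and 0.89. The genes closest to EXPA9 were UGT71C4 (0.0798), TZP (0.0937) and PRA1.B5 (0.113), all lower in each line by amounts near those of EXPA9. With 3 arrays such likeness is a description only, and small ratios have many near neighbours.

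Other genes of wall loosening and primary wall growth were taken from fixed lists. XTH enzymes cut xyloglucan chains and join them anew. Of 9 measured XTH genes 0 were called and 8 had means below 0, with a median of -0.16. Of all 9253 genes 4418 had means below 0. The lowest was XTH33 at -0.64 ± 0.69 and the highest XTH16 at 0.07 ± 0.16. XTH33 was far lower in line 2, at -1.43, than in lines 1 and 3, at -0.17 and -0.32. The array of line 2 alone has the opposite dye orientation, so a line difference cannot be told apart from a dye effect here. With the dye term, the dye effect of XTH33 was 0.59 on the log2 scale. Without line 1, limma called 1 XTH gene lower, EXGT-A3, at -0.76 (adjusted p = 0.0392), in a fit that called 6.3% of all genes lower. Of 4 measured CSLC genes, for glucan synthases of the xyloglucan backbone, 0 were called. CSLC04 was lowest at -0.50 ± 0.14 (limma adjusted p = 0.071), and CSLC12 was nearest to wild type at -0.07 ± 0.15.

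CSLC5, like EXPA15, had line 1 well below wild type and the other lines above it, with -1.60 in line 1, 0.29 in line 2 and 0.43 in line 3. COB, which encodes a membrane-anchored protein that guides cellulose orientation, measured -0.28, 0.47 and 0.59. PME61, a pectin methylesterase gene also known as PME35, measured -0.43, 0.52 and 0.83. In COB and PME61, too, line 1 was below wild type and lines 2 and 3 above it, and their limma adjusted p-values were 0.496 and 0.545. Without line 1, limma called COB higher, at 0.53 (adjusted p = 0.0472), as it did 6.2% of all genes. PME61 at 0.67 (limma adjusted p = 0.0525) and CSLC5 at 0.36 (limma adjusted p = 0.0849) were not called there. ADPG1, a polygalacturonase gene, was at 0.02 ± 0.04 and not called.

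Wall sensor kinase genes were not called. ANX1 was highest at 0.08 ± 0.07 and THE1 lowest at -0.34 ± 0.42, and FER was at -0.11 ± 0.06. Of 4 measured genes of growth hormone pathways 1 was called. YUC6, an auxin synthesis gene, rose, with a mean of 1.85 ± 0.53 (adjusted p = 0.0449 by limma), 1.24 in line 1, and 2.19 and 2.12 in lines 2 and 3. IAA29, an auxin response gene, was at 0.19 ± 0.53 and GH3.3, for an enzyme that conjugates auxin, at -0.14 ± 0.13. No proton pump, SAUR, aquaporin or extensin gene of the lists had a listed spot.

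All 4 measured secondary wall genes were called lower, with similar values in the lines. HCT of lignin monomer synthesis had a mean of -2.404 ± 0.17 (adjusted p = 0.00917 by limma). IRX15 and IRX15-L, genes needed for normal xylan, had means of -2.14 ± 0.23 and -1.43 ± 0.07, and GUT1, the xylan synthase gene also called IRX10-L, one of -0.60 ± 0.06 (limma adjusted p = 0.0483). The SDs of these genes, 0.06 to 0.23, compare with 1.21 for EXPB3 and 1.14 for EXPA15. Line 1 was below wild type for this group as the other lines were, with a median ratio of -1.65 against -1.87 and -1.77 in lines 2 and 3.

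**Figure D4:**
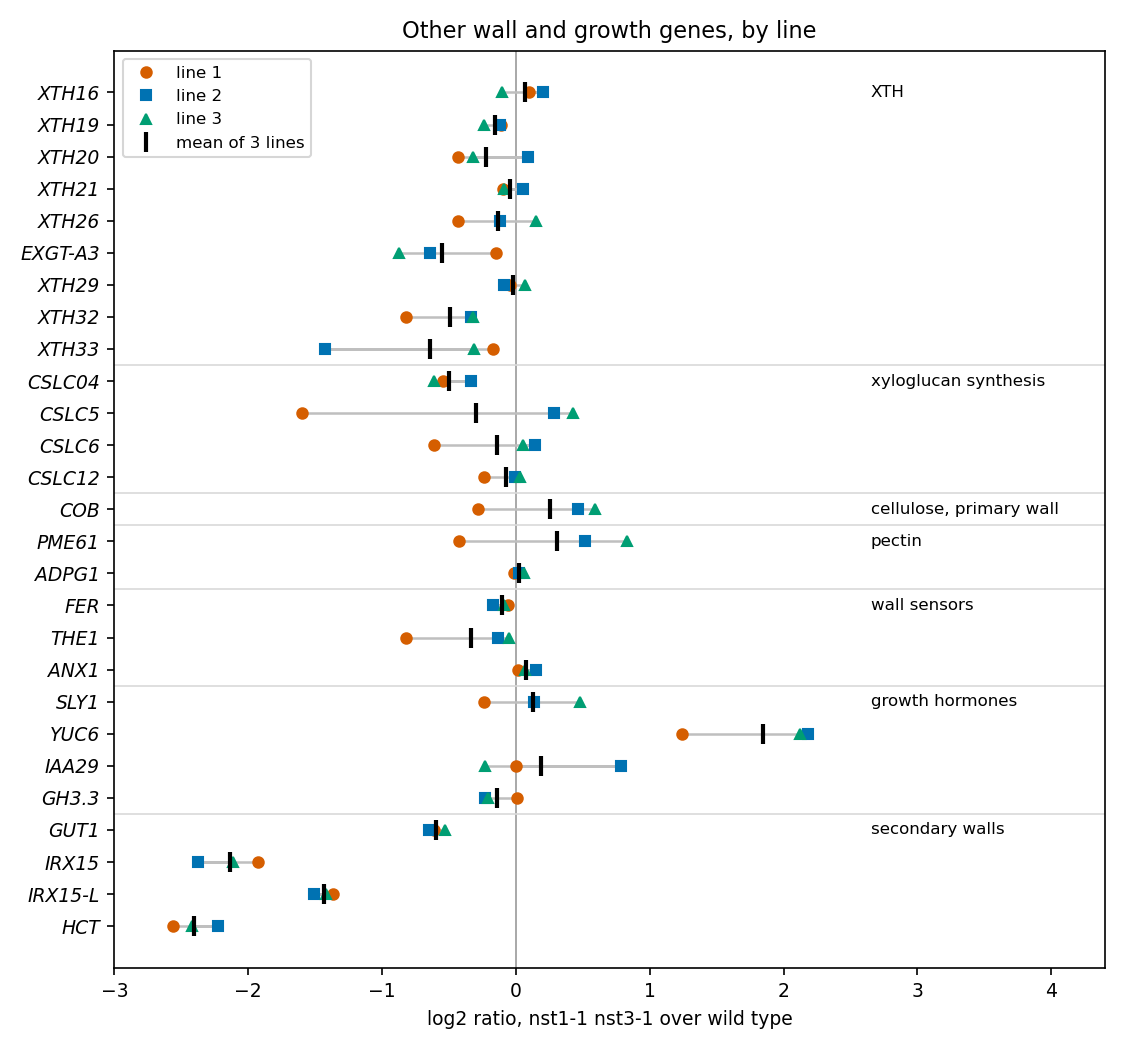
Log2 ratio of mutant over wild type (horizontal axis) for the measured genes of the other wall and growth lists (rows), with 1 symbol per line and a black tick for the mean of the 3 lines. The secondary wall genes at the bottom are lower in all lines, YUC6 is higher in all lines, and CSLC5, COB and PME61 have line 1 below 0 and lines 2 and 3 above it.

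Some markers of other tissues also had line 1 apart from the other lines. SWEET11, a phloem sucrose exporter gene and the 1 measured phloem marker, measured 2.28 in line 1 and 0.16 and -0.50 in lines 2 and 3, highest in line 1. AUR2, a mitotic kinase gene, measured -0.89, 0.63 and 0.39, and AUR1 measured -0.29, 0.33 and 0.25. The 3 measured light-harvesting genes of green cortex had a median of -0.36 in line 1 and of -0.94 and -1.05 in lines 2 and 3. They were not alike. Line 1 was apart for LHCB4.1 (-0.36, -1.18 and -1.05) and LHCB4.2 (0.10, -0.94 and -1.05), but not for LHCB4.3 (-0.80, -0.88 and -0.57). Of these LHCB4.3 was called and fell by 0.75 ± 0.16 (limma adjusted p = 0.0483), and LHCB4.1 at -0.86 ± 0.44 and LHCB4.2 at -0.63 ± 0.63 were not. The cambium and phloem peptide gene CLE41 and the epidermal wax gene WSD1 had means of 0.01 ± 0.34 and -0.03 ± 0.08. Most markers on these lists had no listed spot, and ratios give no level, so the tissue itself was not checked. The part of differing tissue composition in the expansin values was not tested.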

How the data were processed

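The authors deposited log10 ratios of 22236 spots on each array. The log base was inferred from a lowest value of exactly -2, a 100-fold ratio. Scanner, background correction and dye normalization are not given in the sources used here. Over all genes the deposited columns correlated at -0.488 (lines 1 and 2), -0.784 (lines 2 and 3) and 0.477 (lines 1 and 3), as the labelled dyes imply for 1 turned array. Ratios were turned to mutant over wild type by the labelled dyes and converted to log2. Of 9335 spots with 1 listed gene, 9317 were renamed through Entrez identifiers in the TAIR10.1 gene table. Spots of 1 gene were averaged (79 genes). The test was limma 3.58.1 in R 4.3.3 (lmFit and eBayes, 3 ratios against 0, two-sided) with Benjamini-Hochberg adjustment over 9253 genes. It was also run on simulated data, drawn as independent normal values with variances from limma's own prior. That run cannot show how the test behaves where 2 arrays are more alike than the third, as lines 2 and 3 were. Percentiles rank a gene among the 9253 genes. Each line counted as 1 replicate, and having 3 arrays limits precision. Alternatives were scaling, centring, zeros left out, single spots, a robust prior, a dye term, a log2 reading, other thresholds, all spots, and each line left out. All measured expansins are named. From each of 16 lists, which match 361 genes of which 50 were measured, called genes and the highest and lowest others are named, and some further genes were named after their values were seen. Members, lists and tests were chosen with earlier results of these data known. No genome build was given for the files, so no coordinates are printed.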

Additional observations from a re-analysis of the deposited data

How the results depend on the processing

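No expansin was called under scaling, centring, zeros left out, single spots, a robust prior, a dye term, a log2 reading, all spots fitted, or thresholds of 0.1 and 0.01. With 1 line left out, 0 to 3 were called higher, the 3 being EXPB3, EXPB1 and EXPA15 without line 1. Over all genes, 73 were higher and 241 lower. Scaling gave 175 higher and zeros left out 164. Fitting all spots gave 3 higher and 66 lower among spots with 1 gene, where the adjustment covers more spots. A threshold of 0.1 gave 530 and 648, and one of 0.01 gave 0 and 24. With the dye term both were 0 by limma (761 higher and 831 lower at an unadjusted p under 0.05). Leaving out 1 line gave 0 to 574 higher and 0 to 583 lower, with 0 and 0 without line 2 (649 and 724 unadjusted) and without line 3 (770 and 660). Several means changed sign, most of them small, but also that of EXPA15, whose lines lay far apart on both sides of 0. EXPA21 was at 0.0313 with the dye term. With 1 line left out, EXPA21 ranged from -0.22 to 0.0693, EXPA8 from -0.0900 to 0.0817, EXPA4 from -0.0024 to 0.0535, EXPA7 from -0.20 to 0.0038, EXPB4 from -0.30 to 0.23 and EXPA15 from -0.10 to 0.95. The causes of these changes were not tested, and leaving out 1 line alters both the number of arrays and which arrays are used. Read as log2, the means shrink by construction, EXPB3 to 0.33, with the same p-values. Each array already pairs a mutant sample with wild type, so the fit of the 1 group of ratios against 0 uses that pairing. Without intensities, dim spots could not be set apart.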
